A study of Homo sapiens with 42 samples.

Results

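Open chromatin in MCF10A cells after 48 h of oncostatin M (OSM) was compared with open chromatin after 48 h of vehicle (PBS). MCF10A is an established, nontransformed line of human mammary epithelial cells. It was plated on collagen-1 in growth medium, moved to medium without EGF and insulin, and then given OSM at 10 ng/ml or PBS. Each arm had 3 samples, lettered A to C, so 6 of the 42 samples of the series were compared. The medium of every arm still held horse serum, hydrocortisone and cholera toxin. The remaining samples were used to learn how often a site is detected, to estimate the spread of detection between replicates, and as a reference. They were CTRL at 0 h (4 samples), EGF at 24 h and at 48 h (4 each), and PBS and OSM at 24 h (3 each). HGF, IFNG + EGF and TGFB + EGF had 3 samples at each of 24 h and 48 h. The assay was ATACseq, in which a transposase cuts DNA that is not covered by nucleosomes, and the files list peaks of such cuts in each sample. Overlapping peaks of the 6 samples on chromosomes 1 to 22 and X were merged into 75034 sites, of which 47737 had a peak in at least 2 of the 6 samples and were tested.

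OSM is a cytokine of the interleukin-6 family, released mainly by white blood cells during inflammation. It binds the OSM receptor (OSMR) paired with gp130, which IL6ST encodes, and the receptor-bound kinases JAK1, JAK2 and TYK2 then phosphorylate STAT3, which enters the nucleus and binds DNA at spaced TTC and GAA letters. SOCS3, itself a STAT3 target, shuts the signal off, and acute-phase genes such as SERPINA1 are classic targets of the pathway in epithelium.

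The 6 samples differed widely in peak number within each arm. The PBS samples listed 51628, 51525 and 16265 peaks (A, B and C), and the OSM samples 77169, 11798 and 35947. The means differed by -0.0404 on the log10 scale, which is far smaller than the spread in either arm (exact permutation p = 1.0, two-sided; 3 samples against 3 cannot go below 0.1). The files hold no read counts. The density of fragments outside peaks, worked out from fold enrichment and p, was 0.970, 1.08 and 0.969 per base in PBS and 1.05, 1.36 and 1.28 in OSM. OSM B, with the fewest peaks, had the highest density, and PBS C and PBS A were nearly equal. OSM B, OSM C and PBS C did not pass the study's own check of enrichment. Of 11 mammary epithelial marker genes, 7 had a tested site within 1000 bp of a start, and these held a peak in 7, 7 and 1 cases in PBS A to C and in 7, 0 and 6 in OSM A to C. The 6 fibroblast and 4 endothelial marker genes had no such site, and 1 of 5 white blood cell marker genes had one, with a peak in PBS A and B and OSM A and C.

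The sites that the comparison turned on are shown first by their sequence, 50 bases on either side of the summit in hg38 on the plus strand, each named by the gene with the nearest protein-coding start. Capitals mark letters that match the STAT (TTCNNNGAA), AP-1 (TGANTCA), C/EBP (TTGCNNAA) or RUNX (TGTGGTT) motif on either strand. The first 3 carried peaks in all OSM samples and in no PBS sample. They show a site with a STAT match, a site with the AP-1 match that was the commonest motif, and the site near a desmosome gene.
CLINT1 site, chr5:158385115-158385215: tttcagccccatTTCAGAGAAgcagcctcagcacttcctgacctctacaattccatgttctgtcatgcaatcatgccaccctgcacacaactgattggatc
TAF1L site, chr9:32644826-32644926: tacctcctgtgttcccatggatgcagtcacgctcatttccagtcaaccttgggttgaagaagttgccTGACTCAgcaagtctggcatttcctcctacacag
DSG3 site, chr18:31419617-31419717: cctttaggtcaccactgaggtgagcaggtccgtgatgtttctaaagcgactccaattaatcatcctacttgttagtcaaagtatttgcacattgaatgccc

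The next 5 were lost in OSM. The first 3 had peaks in all PBS samples, and the last 2 show the form TTCTCAGAA, which is found in many copies in centromeric repeats and counts as a STAT match.
HS3ST3A1 site, chr17:13744050-13744150: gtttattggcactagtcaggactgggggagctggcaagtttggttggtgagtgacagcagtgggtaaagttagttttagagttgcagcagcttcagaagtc
FOXQ1 site, chr6:1135815-1135915: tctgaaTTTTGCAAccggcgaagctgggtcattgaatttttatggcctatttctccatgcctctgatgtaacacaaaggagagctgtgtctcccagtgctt
DEFB115 site, chr20:28825021-28825121: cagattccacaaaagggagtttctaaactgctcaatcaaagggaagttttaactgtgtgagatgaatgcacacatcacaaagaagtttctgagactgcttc
ZNF254 site, chr19:25251053-25251153: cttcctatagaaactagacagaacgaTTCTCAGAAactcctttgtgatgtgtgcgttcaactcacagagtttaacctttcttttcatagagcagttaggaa
ZXDA site, chrX:59230310-59230410: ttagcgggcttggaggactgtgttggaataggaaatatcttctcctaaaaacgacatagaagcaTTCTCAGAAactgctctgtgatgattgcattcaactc

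The first question was which sites were open after OSM and closed after PBS, or the reverse. After OSM, 136 sites were gained and 15 were lost, and none of the 10 best ranked gained sites lay at a promoter. Because a sample with more peaks detects more sites of every kind, detection (1 or 0) was adjusted by subtracting the share of sites of the same class that the sample detects, where classes are the number of the 42 samples with a peak there. A full switch between the arms thus gives a difference near 1 or -1 that varies with the class. It was 1.12 at the CLINT1 site and -0.946 at the DEFB115 site. Sites with a peak in only 2 of the 42 samples read 0.811 for OSM B and C and -0.522 for PBS B and C. The sizes are therefore not on the same scale in each arm. The call needed a change of at least 0.5 and an adjusted p under 0.01 by limma, which 0.285% of tested sites passed as gained and 0.0314% as lost. Among gained sites, 96 had a peak in 3 OSM and 0 PBS samples, 14 in 3 and 1, and 26 in 2 and 0. The 96 and the 26 passed the filter of 2 samples only through the OSM arm, where they had to be higher. All 15 lost sites had no peak in OSM and passed only through the PBS arm. The differences and p-values of such sites, here and below, are a description. Gained sites were mostly far from transcription starts: 3 (2.21%) lay within 1000 bp of a start, against 24.2% of all tested sites. The median distance was 48974 bp against 22901 bp. All tested sites include those with a peak in all 6 samples, which could not be called and of which 47.9% were promoters. Part of the contrast thus follows from the way sites were called. The counts hung on single samples. Gained and lost sites numbered 53 and 24 without PBS A, 40 and 9 without PBS B, 1129 and 87 without PBS C, 268 and 148 without OSM A and 22 and 13 without OSM C, and in a fit on the 6 samples alone limma called 0 in either direction (304 at an unadjusted p below 0.05). In simulated data more unchanged sites passed than the adjusted p states, so the calls are best read as a ranking.

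Among the named gained sites, one 526 kb from CLINT1, which encodes a clathrin adaptor, reached 9.23, 4.21 and 7.60 in the OSM samples and had no peak in PBS. It had a peak in all 4 CTRL samples and in all 3 PBS samples at 24 h. The difference was 1.12 ± 0.144 at 48 h (SE, limma adjusted p = 0.0001634) and -0.004 at 24 h, and the change between the times did not pass (adjusted p = 0.0612 by limma). A site in an intron of WWTR1, which encodes the Hippo pathway coactivator TAZ, was likewise open in CTRL and in PBS at 24 h. It measured 9.12, 5.17 and 6.52 in OSM and had no peak in PBS at 48 h (difference 1.09 ± 0.156, limma adjusted p = 0.000289). The CLINT1 and WWTR1 sites passed the filter only through the OSM arm, where they had to be higher. Their differences and p-values at 48 h are therefore a description.

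Sites near TAF1L, KIF2B (a mitotic kinesin), ACTBL2 (an actin-like protein) and DYRK2 (a protein kinase) had one and the same pattern of detection in the fit, with a difference of 1.07 and an adjusted p of 0.000289 each by limma. Each held an AP-1 match and each had a peak in 35 of the 42 samples, CTRL and PBS at 24 h included. Their fold enrichment in OSM A was 10.7 to 14.7 and in OSM B 4.66 to 7.30. The site near TAF1L, with the AP-1 letters shown above, gave 12.9, 7.30 and 8.48. These sites too passed the filter only through the OSM arm, so their difference and p-value are a description.

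The other named gained sites were of a different kind. Sites 2164 kb from ZNF254, 1103 kb from ANKRD30B and 27.4 kb from NRARP (a regulator of Notch signalling) had peaks in OSM B and C. No other sample of the series had one, and the fold enrichment was 3.84 to 5.33. The ZNF254 site held CACAGAGTT, which like TTCTCAGAA is part of a centromeric repeat. All of these sites passed the filter only through the OSM arm, where they had to be higher. Their difference of 0.811 ± 0.107 (SE, limma adjusted p = 0.0001634) is therefore a description. The SE draws on all 13 groups, and the other groups held no peak there, so it is not the spread within the arm. Without that filter it was 0.524 (limma adjusted p = 0.08625), and without the samples the study removed, which takes out OSM B and C, it was 0. Each lost its call in 1 of the 6 fits that left out a sample.

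Of the 15 lost sites, 12 lay more than 500 kb from any protein-coding start, and the median distance was 1135401 bp. In 10 of them the peak was in PBS B and C and in no other sample of the series. These 10 were never detected in PBS A, although that sample had the most peaks of its arm. They include sites near ZNF254, OR11H12, TPTE and ZXDA, each with a difference of -0.522 ± 0.098 (SE, limma adjusted p = 0.005926). They passed the filter only through the PBS arm, so these values are a description too. Here again the SE draws on groups without a peak and is not the spread within the arm. The difference was -0.809 without the filter (limma adjusted p = 0.005665) and -0.189 without the samples the study removed (limma adjusted p = 1.0), and the call held in 3 of the 6 fits that left out a sample.

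A few lost sites were present in all 3 PBS samples. The site 142 kb from HS3ST3A1, which encodes an enzyme that sulfates heparan sulfate, measured 6.60, 7.23 and 4 in PBS A to C and had no peak in OSM. It was open in all 4 CTRL samples, in 1 of 3 PBS samples at 24 h and in none of the OSM samples at 24 h (difference -0.991 ± 0.154, limma adjusted p = 0.0007775). The site 176 kb from FOXQ1, a forkhead factor, was weaker, at 3.69, 3.39 and 4.06, and CTRL did not carry it (difference -0.955 ± 0.145, adjusted p = 0.0005865 by limma). The site nearest to DEFB115, a defensin gene, lay 2433 kb from its start and was weak as well, at 3.88, 3.67 and 3.91. Its difference was -0.946 ± 0.13 (limma adjusted p = 0.000289), and it had a peak in only 1 sample outside the PBS arm. The HS3ST3A1, FOXQ1 and DEFB115 sites also passed the filter only through the PBS arm. Their differences and p-values are therefore a description, and the SE again draws on all 13 groups.

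The wider pattern was examined over all sites that switched fully, whether called or not. A peak in all 3 OSM and no PBS samples was seen at 304 sites (0.637% of those tested), and a peak in all 3 PBS and no OSM samples at 99 (0.207%). Few were promoters, 0.658% and 4.04% of them, and AP-1 letters lay in 45.7% of the OSM-only and 21.2% of the PBS-only sites, against 34.3% of all tested sites and 43.5% of those over 1000 bp from a start. STAT letters lay in 14.5% and 14.1%, against 7.73% of all tested sites and 9.09% of those over 1000 bp from a start. RUNX letters lay in 11.5% and 5.05%, against 5.54% and 6.69%. Of the 44 OSM-only and 14 PBS-only sites with STAT letters, 8 and 6 held the centromeric form TTCTCAGAA. STAT letters without that form lay in 36 of the 304 OSM-only and 8 of the 99 PBS-only sites, against 5.50% of all tested sites. These shares are descriptions, since the sites were picked for their detection.

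Most OSM-only sites were already open before treatment. They had a peak in 93.1% to 94.7% of cases in the 4 CTRL samples, which is close to the 93.7% to 94.9% of all tested sites, and in 81.6% to 84.9% in EGF at 48 h. PBS at 24 h detected 87.2%, 37.8% and 29.3% of them, while it detected 94.7%, 68.7% and 61.4% of all tested sites. OSM at 24 h detected 98.0%, 94.4% and 89.1%, against 94.0%, 70.3% and 62.3%. Each OSM sample of the earlier time thus held a larger share of these sites than of all sites, and each PBS sample of that time a smaller one. Against CTRL in the same fit, the 136 gained sites had a median difference of 0.385 for OSM and -0.623 for PBS, and 128 of them had a peak in at least 3 of 4 CTRL samples. The sites were chosen for a low PBS value, so the sizes of these medians are a description. The remaining 8 gained sites had no peak in any CTRL sample.

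PBS-only sites showed the opposite at 24 h. PBS at 24 h detected 87.9%, 64.6% and 61.6% of them, near its share of all tested sites. OSM at 24 h detected 45.5%, 17.2% and 13.1%, far under its share of all tested sites. CTRL held 71.7% to 80.8%.

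**Figure D1:**
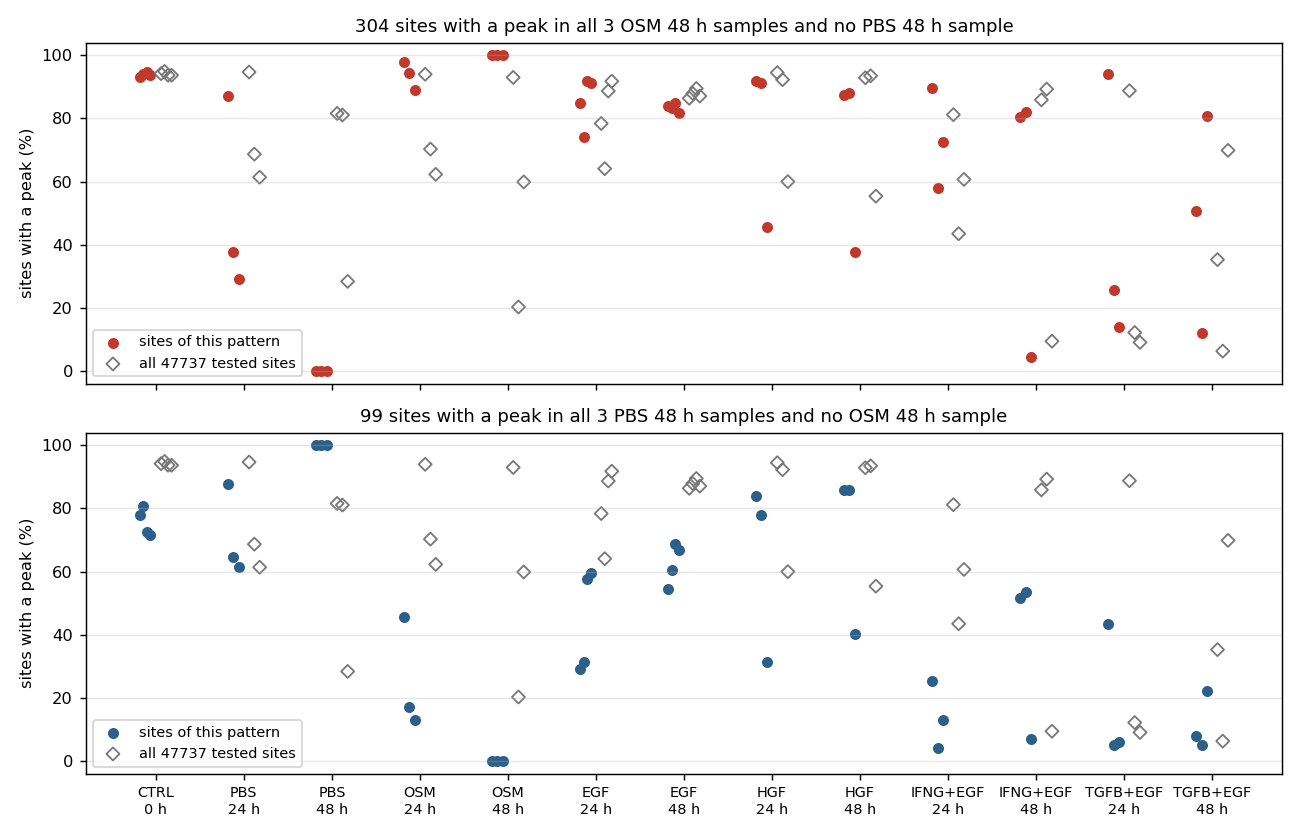
Share of sites with a peak in each of the 42 samples (y axis, percent) for the 304 OSM-only sites (upper panel, filled points) and the 99 PBS-only sites (lower panel, filled points), with all 47737 tested sites as open diamonds. The values at 48 h for PBS and OSM are 0 or 100 by choice of the sites, and at 24 h the OSM-only sites lie above the diamonds in OSM and below them in PBS.

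The full switch recurred at 24 h at a minority of these sites, in samples that had no part in choosing it. Of the 304 OSM-only sites, 26 (8.55%) had a peak in all 3 OSM and no PBS samples at 24 h, against 377 of all 47737 tested sites (0.790%), and 0 had the opposite pattern. Of the 99 PBS-only sites, 19 (19.2%) had a peak in all 3 PBS and no OSM samples at 24 h, against 211 (0.442%), and again 0 had the opposite pattern. In the fit, the median difference at 24 h was 0.329 for OSM-only sites and -0.606 for PBS-only sites, against -0.00417 for all tested sites. Called gained sites had a median of 0 at 24 h. The direction at 24 h was the same for 65 of the 136 gained and 5 of the 15 lost sites, and 4 of the 151 were called at 24 h. Sites with a peak in only 2 samples of 1 arm at 48 h and in no other sample read 0 there. No site had a difference between the times at an adjusted p below 0.05 by limma (lowest among the named sites, 0.0612).

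The second question was whether the kind of open DNA differed. Promoters made up less of the strongest open chromatin after OSM than after PBS. Among the 11798 strongest peaks of each sample, which is the number that OSM B lists, 33.9%, 31.6% and 36.2% lay within 1000 bp of a start in OSM A to C and 54.2%, 52.6% and 45.6% in PBS A to C. The arms did not overlap: the means were 33.9% ± 2.26 and 50.8% ± 4.61 (SD, n = 3 each), a difference of -16.9 percentage points (exact permutation p = 0.1, two-sided, the smallest this design allows). That number is 22.9%, 22.9% and 72.5% of the peaks of PBS A to C and 15.3%, 100% and 32.8% of those of OSM A to C, so the share of a sample's peaks that was compared was not equal. Without OSM B and PBS C, a choice made after seeing the data, the difference was -18.4 points (exact permutation p = 0.3333, two-sided, the smallest that 2 against 2 samples allow). Over all peaks the difference was smaller, at 29.1% ± 4.79 against 35.5% ± 6.12 (-6.47 points, exact permutation p = 0.2), and it was -2.93 without PBS C and -3.70 without OSM A.

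Against CTRL, the PBS samples were farther away than the OSM samples. CTRL held 29.6% to 34.4% and OSM at 24 h 31.7% to 33.9%, and both ranges overlap that of OSM at 48 h. PBS at 24 h held 36% to 45.7%, and 1 of the 36 samples outside the comparison reached the lowest PBS sample at 48 h. The DNA under the strongest peaks was also richer in G and C after PBS, at 59.9%, 59.4% and 57%, than after OSM, at 55%, 53.4% and 55.2%. Away from promoters the arms overlapped, at 51.5%, 51.4% and 48.9% after PBS and 49.5%, 47.7% and 49.4% after OSM.

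**Figure D2:**
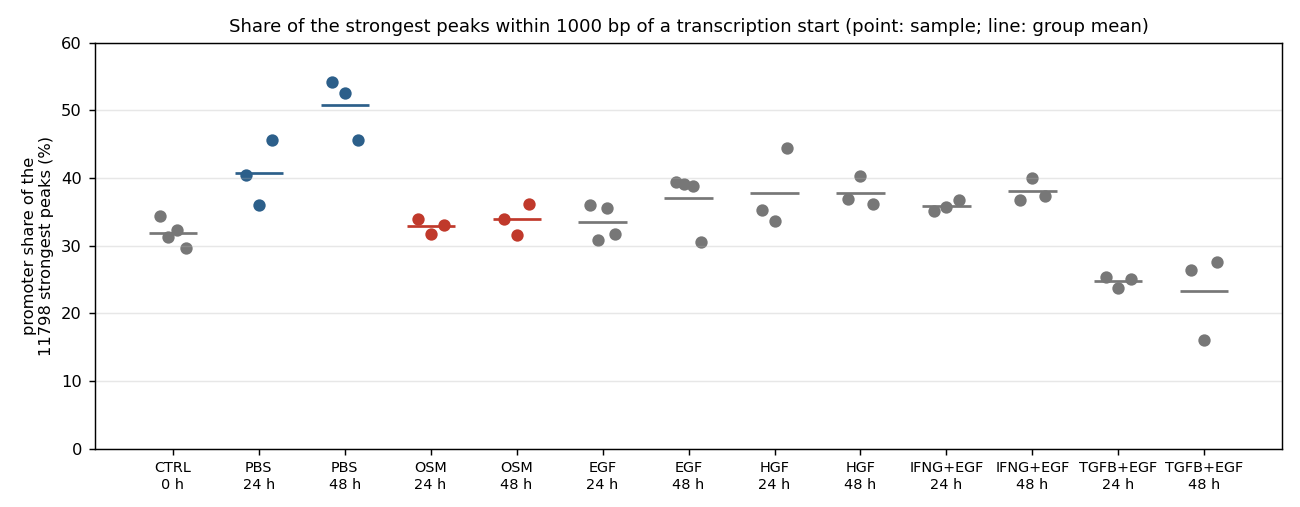
Share of the 11798 strongest peaks that lie within 1000 bp of a transcription start (y axis, percent) in each sample, by treatment and time, with lines at the group means; samples with fewer peaks keep all of them. The 3 PBS points at 48 h lie at 45.6% to 54.2% and the 3 OSM points at 31.6% to 36.2%, beside CTRL at 29.6% to 34.4%.

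The same shift showed in how strong the peaks were. At the 5854 sites with a peak in all 6 samples (12.3% of tested sites), log2 fold enrichment at the summit was quantile normalised and compared. Promoter sites (2805) had a median difference of -0.11 and other sites (3049) of 0.10, OSM minus PBS on the log2 scale. The median of promoter sites minus that of other sites was 0.17, 0.18 and 0.15 in PBS A to C and -0.07, -0.08 and -0.03 in OSM A to C (exact permutation p = 0.1). This contrast of promoters with other sites was chosen after seeing the data.

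No single site passed at a limma adjusted p below 0.05 (0% of 5854), while 714 had an unadjusted p below 0.05, or 446 without PBS B. Among these, 333 of the 365 higher sites were away from promoters and 249 of the 349 lower sites were at promoters. The highest uncalled ranks were sites in an intron of SMIM3 and at a distance from GALC (a lysosomal galactosidase), KLF5 (a zinc finger factor of epithelial growth), ADCY8 (an adenylate cyclase) and CDH11 (a cadherin). The SMIM3 site, which holds an AP-1 match, measured 7.34, 9.22 and 5.90 in PBS A to C and 20.0, 9.16 and 14.7 in OSM A to C. After normalisation the arms did not overlap, with a log2 difference of 1.27 ± 0.19 (SE, n = 3 and 3; limma adjusted p = 0.06394).

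Of the 5 lowest ranks, those at RASSF1 (a tumor suppressor), CALR (the chaperone calreticulin) and RC3H2 (an RNA-binding ubiquitin ligase) lay at most 146 bp from a start. The RASSF1 site measured 12.3, 15.1 and 8.72 in PBS and 6.28, 3.99 and 4.20 in OSM (log2 difference -1.02 ± 0.19, limma adjusted p = 0.1262). The other lowest ranks were near ATP2B1, a calcium pump, and in an intron of RASAL2, a Ras GTPase activator.

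**Figure D3:**
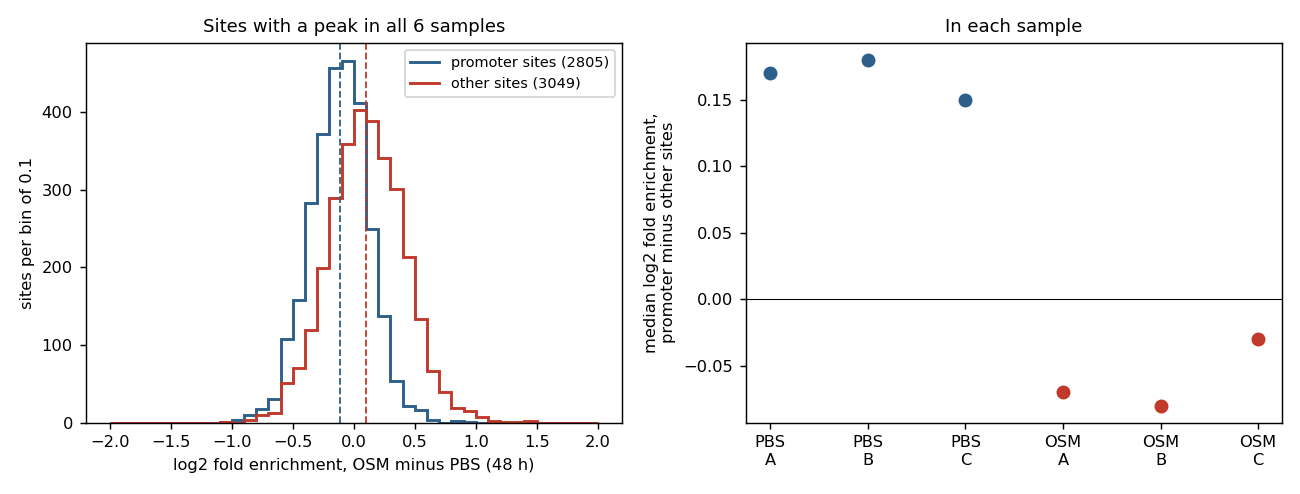
Left, number of sites per bin of 0.1 (y axis) by log2 fold enrichment, OSM minus PBS (x axis), for 2805 promoter sites and 3049 other sites, with dashed lines at the medians of -0.11 and 0.10. Right, median log2 fold enrichment of promoter sites minus that of other sites in each sample, which is 0.15 to 0.18 in PBS and -0.08 to -0.03 in OSM.

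The third question was which transcription factor motifs the detected sites carried. Motif deviation compares, in percent, how many detected sites held the letters on either strand in the 100 bp to each side of the summit with how many were predicted from that sample's detection rates. A stretch of DNA could count for more than 1 motif. Of 20 motifs, 9 gave arms that did not overlap, and 16 did so without OSM B. A smaller arm separates more easily, so 9 and 16 are not on the same footing. OSM was higher for RUNX (TGTGGTT, in 5.54% of tested sites), TEAD (CATTCCA, 4.92%) and the p53 family (7.47%). It was lower for CREB (TGACGTCA, 0.959%), ETS (CCGGAAGT, 1.81%), SP (GGGGCGGGG, 6.33%), NF-Y (CCAATCAG, 1.96%), NRF1 (GCGCATGCG, 0.783%) and CTCF (AGGGGGCGC, 0.957%). Several of the latter, such as SP, ETS and NRF1, are motifs of promoters. Each of the 9 had an exact permutation p of 0.1, the smallest possible here, and an adjusted p of 0.222 over the 20.

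RUNX letters, which bind the RUNX factors of mammary and blood cell fate, gave 2.78%, 5.24% and 7.66% in OSM and -10.2%, -9.26% and -26.6% in PBS. All OSM values lay above all PBS values. SP letters gave -0.04%, -20.9% and -5.11% in OSM and 8.46%, 8.08% and 19.3% in PBS.

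STAT letters (TTCNNNGAA, in 7.73% of tested sites) overlapped between the arms, at -7.83%, 63.6% and 17.8% in OSM A to C and -7.81%, -3.26% and 34.8% in PBS A to C. The high values were in OSM B and PBS C, which had the fewest peaks. One spelling of the motif, TTCTCAGAA, was held by 1064 of the 3689 sites with STAT letters, and 760 of these lay more than 500 kb from a start. As background, this spelling and CACAGAGTT are part of the alpha satellite, the repeat of human centromeres. Sites with TTCTCAGAA had a deviation of 135% in PBS C and 179% in OSM B, against -12.2% in PBS A and -36.9% in OSM A.

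Without the 1694 sites that held either spelling, a choice made after seeing the data, STAT letters gave 1.24%, 14.5% and 9.46% in OSM and -6.89%, -5.95% and -3.01% in PBS. The arms then did not overlap (8.39% ± 6.68 against -5.28% ± 2.02, SD, n = 3 each; exact permutation p = 0.1). On that basis 14 of 20 motifs did not overlap, 8 higher and 6 lower in OSM. When promoter sites were left out as well, 9 did not overlap. STAT, RUNX, IRF (GAAANNGAA), SMAD (GTCTAGAC) and the E-box of SNAI and ZEB (CAGGTG) were higher in OSM, and CREB, SP, NRF1 and FOX (TGTTTAC) were lower. STAT letters then gave 1.28%, 10.1% and 10.5% in OSM and -6.57%, -5.91% and -0.90% in PBS.

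AP-1 letters (in 34.3% of tested sites), the target of the FOS and JUN proteins, overlapped over all sites. Without the repeat spellings they did not overlap, at 1.05%, 0.51% and 0.65% in OSM and -5.32%, -5.32% and -23.7% in PBS. With promoters also left out the arms overlapped, at 1.08%, -8.10% and -0.67% against -3.35%, -3.41% and -15.8%. The remaining motifs, ATF4 (TGATGNAA), NF-kB (GGGANTTCC), GRHL (AACNNGTT) and KLF (GGGTGTGG), overlapped between the arms in all 3 sets of sites. C/EBP letters were separate in the second set only.

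**Figure D4:**
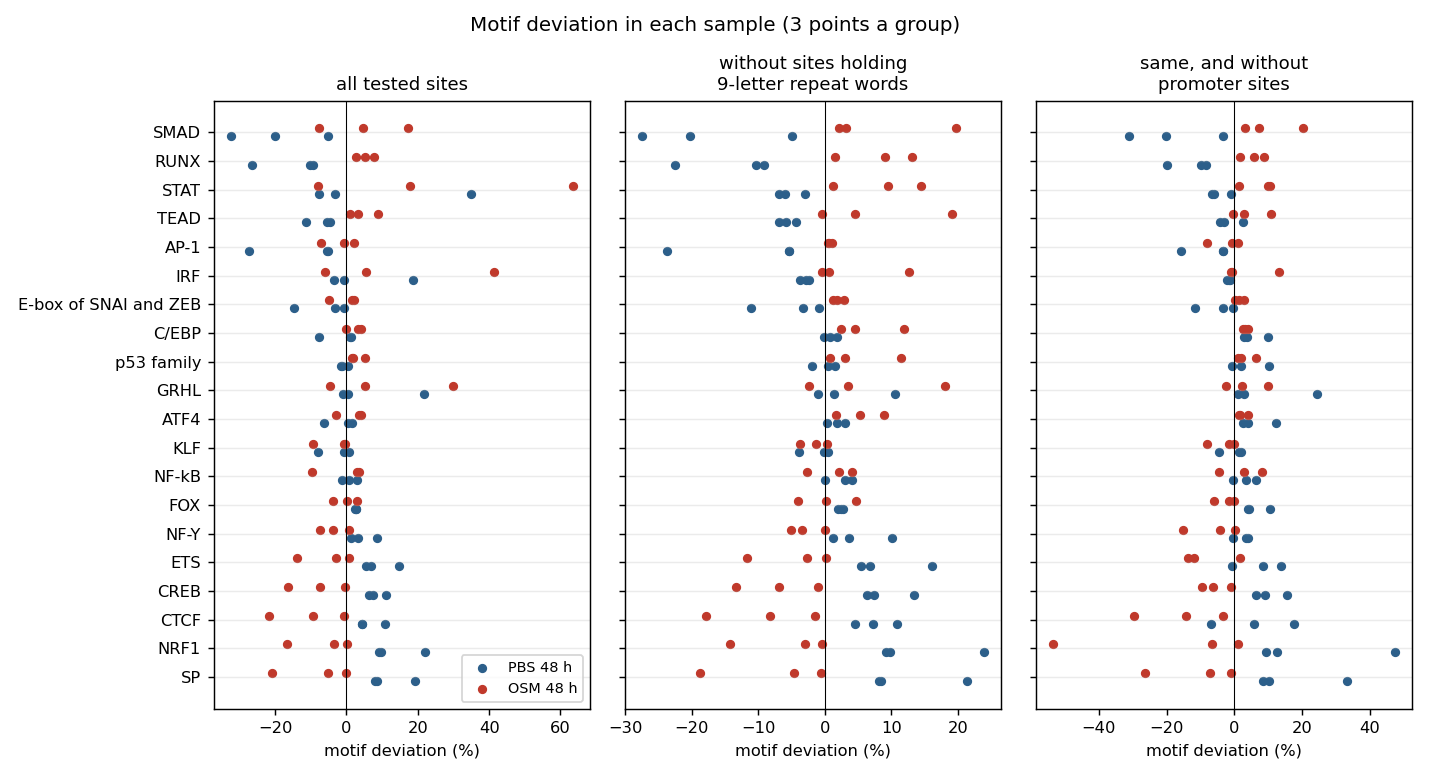
Motif deviation (x axis, percent) of 20 motifs in each sample of PBS (blue) and OSM (red) at 48 h, over all tested sites (left), without the sites that hold TTCTCAGAA or CACAGAGTT (middle) and also without promoter sites (right). STAT points overlap on the left, with OSM B at 63.6% and PBS C at 34.8%, and are separate in the middle panel.

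The fourth question was whether sites near genes of the OSM pathway changed. Of the 87 tested sites within 50 kb of the 19 genes of the JAK-STAT pathway 0 were called, and of the 76 sites near the STAT3 and acute-phase targets 0 were called. Since 0.316% of all tested sites were called in either direction, counts of 0 are near the background in lists this short. The median differences were 0.0453 and 0.0441, against 0.0497 over all tested sites.

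Of the receptor chains, OSMR had a promoter peak in all 6 samples, with a fold enrichment of 10.8, 10.6 and 5.91 in PBS A to C and 11.2, 4.53 and 6.45 in OSM A to C. The log2 difference after normalisation was -0.04 ± 0.18 (SE, n = 3 and 3; limma adjusted p = 0.9583). IL6ST, the gp130 gene, was likewise open in all, at 13.3, 13.2 and 6.28 in PBS and 11.6, 5.66 and 7.13 in OSM. The promoter of LIFR, the other partner chain, had no peak in OSM B.

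Among the kinases, JAK2 measured 12.6, 11.8 and 9.10 at its promoter in PBS and 11.3, 4.94 and 5.30 in OSM (log2 difference -0.39 ± 0.19, limma adjusted p = 0.4335), and TYK2 14.6, 13.9 and 7.18 in PBS and 11.5, 4.74 and 4.53 in OSM (-0.57 ± 0.23, adjusted p = 0.3464 by limma). Of the STAT genes, STAT3 measured 11.8, 14.3 and 9.71 in PBS and 11.3, 6.37 and 9.37 in OSM (log2 difference -0.09 ± 0.18, limma adjusted p = 0.87). None of these promoters passed the test.

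Median differences per gene ran in both directions. SOCS3 (0.401) and SERPINA1 (0.508) were the highest of their lists and are shown for that reason. The lowest of the acute-phase list were FGG (-0.459), which encodes a fibrinogen chain, and LCN2 (-0.271), an acute-phase protein that binds iron carriers. The lowest of the pathway list were SOCS2, a feedback inhibitor, and GRB2, a signalling adaptor, at -0.272 each. These genes were chosen after their values were seen. The LCN2 promoter measured 9.34, 9.25 and 4.89 in PBS A to C and 10.0 in OSM A, with no peak in OSM B and C.

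SOCS3, the feedback inhibitor, had 9 tested sites, and they were detected 6, 6 and 3 times in PBS A to C and 9, 4 and 9 times in OSM A to C. Its promoter, 134 bp from the start, measured 8.06, 8.73 and 5.04 in PBS and 6.69 and 4.06 in OSM A and C, with no peak in OSM B. Sites 15.9 and 39.8 kb away, both with AP-1 letters, had peaks in OSM A and C (7.40 and 4.56, and 7.06 and 4.28) and in no PBS sample at 48 h. They were also open in all 4 CTRL samples, and their differences of 0.723 ± 0.21 and 0.759 ± 0.25 were not called (limma adjusted p = 0.04228 and 0.04953).

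SERPINA1, which encodes the acute-phase protease inhibitor alpha-1-antitrypsin, had 4 tested sites, detected 1, 1 and 0 times in PBS and 4, 0 and 3 times in OSM. Its promoter site had peaks of 4.42 and 4.67 in OSM A and C and none in PBS, and a site 14.7 kb away had peaks of 12.4 and 5.32 in the same samples. OSM B, with the fewest peaks, showed neither, and neither site was called (differences 0.667 ± 0.258 and 0.716 ± 0.196, limma adjusted p = 0.1037 and 0.03237).

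**Figure D5:**
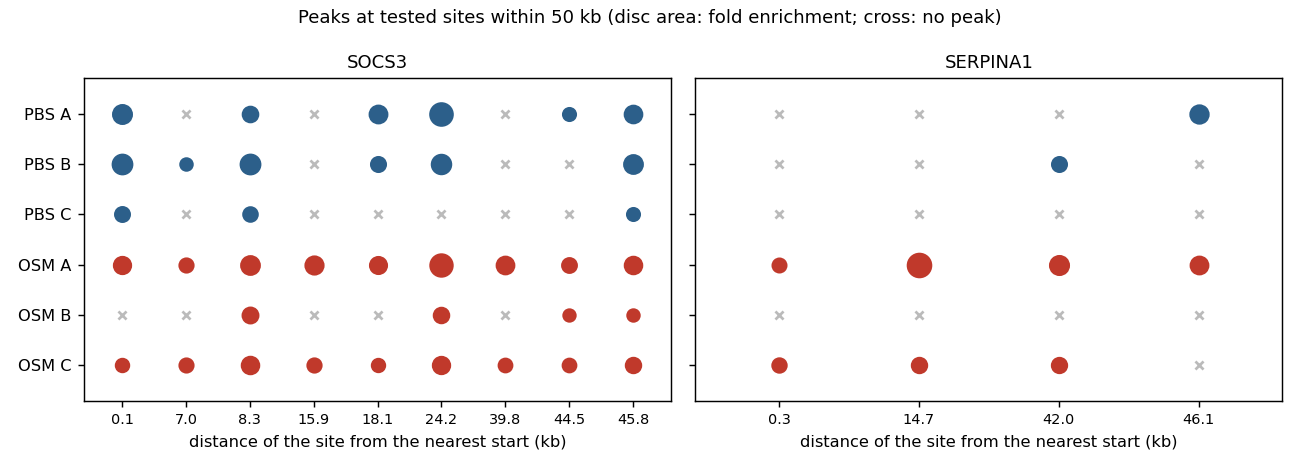
Tested sites within 50 kb of SOCS3 (left, 9 sites) and SERPINA1 (right, 4 sites), with 1 row per sample. Sites are ordered by distance from the nearest start on either side, given in kb below each (x axis). Disc area shows fold enrichment and a cross means no peak. OSM A and C carry all 9 SOCS3 sites, and OSM B carries 4.

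Across 11 gene lists of pathways and cell functions, which together cover the pathway, differentiation, adhesion and proliferation, 1 of 1095 tested sites was called (0.0913%, against 0.316% of all tested sites). It lay 28.1 kb from DSG3, a desmosomal cadherin, and measured 12.7, 5.51 and 5.69 in OSM A to C with no peak in PBS at 48 h. The difference was 1.06 ± 0.154 (SE, limma adjusted p = 0.000289), and it was open in CTRL, in EGF and in both arms at 24 h. This site passed the filter only through the OSM arm, so its difference and p-value are a description. A further 9 sites near list genes switched fully without a call. With the DSG3 site, 4 of the 1095 were OSM-only (0.365%, against 0.637% of all tested sites) and 6 were PBS-only (0.548%, against 0.207%), so the genes named next are given as a description. Sites near the integrin genes ITGA2 and ITGA3 and near the keratin genes KRT6B and KRT6C had peaks in all 3 OSM samples and no PBS sample. Sites near AREG, which encodes the EGF receptor ligand amphiregulin, near the metalloprotease genes MMP2 and MMP7, near ERAP2, an aminopeptidase gene, near IER2, an early response gene, and in an intron of DSG3 had peaks in all 3 PBS samples and no OSM sample. These sites are named by a listed gene within 50 kb. The nearest start was that of KRT75 for the keratin site and LPCAT2 for the MMP2 site. For the IER2 site it was that of STX10, 8 bp away, with IER2 at 44 bp. At 24 h the ERAP2 site had a peak in all 3 OSM and in 2 of 3 PBS samples. The limma adjusted p of the 9 ran from 0.01732 to 0.04815. Median differences of the lists ran from -0.00827 for proteases and inhibitors to 0.0497 for squamous differentiation, and no list of pathways or functions exceeded the 0.0497 of all tested sites.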

How the data were processed

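ATACseq peaks of 42 MCF10A samples were used, grouped by the treatment and time in the labels. Per the labels and the methods of the study, the authors trimmed reads with Trimmomatic 0.36.5, aligned them to hg38 with Bowtie2 2.3.4.1, removed duplicates with Picard, and called peaks in each sample on its own with MACS2 2.1.1.20160309.5 in paired mode at a q of 0.01, without a control library. The ratio deposited by the authors is fold enrichment over local background, taken at the summit. The deposited -log10 values are those of the p-value and the q-value of each peak, as MACS2 writes them, and the deposited score is -log10 q on a whole-number scale. The other deposited columns are positions. The files hold no read counts, so depth is unknown and no counting interval is given. The study describes its samples as biological triplicates. The p-values measure only the spread between samples of this series. Those of detection draw on the spread within all 13 groups, not only within the arms compared. Those of strength and of the permutation tests use the 6 samples alone.

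Peaks of the 6 samples that overlapped by at least 1 bp were merged, and sites with a peak in at least 2 of 6 were tested. Adjusted detection was fitted with limma 3.58.1 in R 4.3.3 over all 42 samples in 13 groups (29 residual degrees of freedom), with Benjamini-Hochberg adjustment over all sites. Strength was fitted with limma on the 6 samples. Sites were placed against GENCODE release 44 protein-coding starts, and sequences were read from the matching hg38 reference with pysam 0.24.0. Exact permutation tests (two-sided) served for measures with 1 value per sample. Scripts were tested on simulated data. Named sites were the 10 gained and 10 lost calls with the lowest adjusted p, then the larger difference, then the higher enrichment, the 5 higher and 5 lower sites by strength (by unadjusted p, as none was called), and every called site within 50 kb of a start of a listed gene. One named site and 1 listed gene are not reported here. Others in the report were chosen after their values were seen. The members, lists and motifs were chosen with earlier results of these data known. Replicate letters were checked as pairs. Deviations of detection from the arm means correlated at 0.137 (A), 0.0505 (B) and 0.207 (C), and those of strength at 0.391, -0.224 and 0.159. These values do not settle whether letters pair samples. The main fits did not pair them, and results with a replicate block are given below.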

Additional observations from a re-analysis of the deposited data

How the results depend on the processing

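Gained and lost counts, 136 and 15 as reported, were 12 and 8 with raw detection, 758 and 387 with an equal number of strongest peaks in every sample, 0 and 0 in the fit on the 6 samples alone, 71 and 2 with peaks at a -log10 q of at least 5, 1517 and 578 with array weights, and 1998 and 885 at an adjusted p below 0.05. Gained sites numbered 33 when peaks had to cover 50% of a site and 24 without the filter on rare sites. Lost sites numbered 4 with sequencing lane as a term and 182 without the samples the study removed, a fit that leaves OSM A alone in its arm and takes the spread from the other groups. Leaving out 1 sample gave 22 to 1129 gained and 9 to 148 lost sites. Leaving out both OSM B and PBS C, chosen after seeing the data, gave 1282 and 168. Of the 151 calls, all kept their sign wherever they were tested, except without the samples the study removed (148 of 151). The sign was largely fixed by how the sites were chosen, so it says little about stability. Fewer kept their call: 12 with raw detection, 47 with a replicate block, and 30, 34 and 43 without PBS B, OSM C or OSM B. Most kept it without PBS C (140), without OSM A (146) and with array weights (121).

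With a replicate block, 47 sites were gained and 3 lost, 2 sites were stronger in OSM, and the promoter share over all peaks differed by -6.47 points (exact permutation p = 0.25). Median centring called 6 stronger sites in OSM.

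The difference in log10 peak number ran from -0.232 to 0.176 when 1 sample was left out and was above 0 without PBS A (0.0433), PBS B (0.0429) or OSM B (0.176). The promoter share over all peaks ran from -8.29 to -2.93 points. The number of motifs with separate arms was 9 to 16 when 1 sample was left out, 7 with a window of 50 bp, 10 with 250 bp, 8 with classes over the 6 samples, and 14 without the repeat spellings. Among motifs, 17 of 240 alternatives changed sign. Without OSM B these were STAT (-2.94, highest 32.8 without another sample), NF-kB (2.49, lowest -4.08), GRHL (-6.67, highest 10.5), IRF (-5.15, highest 18.6) and KLF (2.11, lowest -3.50). Without PBS A they were GRHL (-0.205) and KLF (0.825), and without PBS B GRHL (-0.876) and KLF (0.220). With a window of 50 bp they were GRHL (-0.471), FOX (3.10) and KLF (1.70), and with 250 bp NF-kB (0.262). Without repeat spellings and promoters they were ATF4 (-3.98), C/EBP (-2.22), GRHL (-6.20) and the p53 family (-0.707). None of the 349 alternatives of detection for named sites changed sign, 3 gave a value of 0 (the gained sites near ZNF254, ANKRD30B and NRARP, without the samples the study removed), and 227 passed or failed as reported. The cause of these changes was not tested. With 3 samples an arm, weak sites missing from OSM B or PBS C cannot be told apart from sites that closed.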

Other observations

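The sites that switched fully at both 24 h and 48 h number 26 with peaks in OSM and not in PBS and 19 with peaks in PBS and not in OSM, and those named here were chosen after their values were seen. A site in an intron of N4BP1, 1718 bp from its start, measured 8.48, 6.31 and 4.65 in OSM A to C at 48 h, had no peak in CTRL, EGF or HGF samples, and held a C/EBP match (limma adjusted p = 0.005926). N4BP1 encodes a ribonuclease that restrains inflammatory signalling. A site 104372 bp from F3, the gene of tissue factor, measured 5.73, 4.93 and 5.34 and was open in CTRL and EGF (limma adjusted p = 0.005926). A site 79513 bp from EDN1, the endothelin-1 gene, measured 12.5, 5.11 and 7.26, with a peak in 2 of 4 CTRL samples, and was not called (limma adjusted p = 0.04815).

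On the PBS side were sites near PDK4, a kinase that limits glucose oxidation, near KLF9 and FOXO1, both transcription factors, and near CBLB, a ubiquitin ligase that limits receptor signalling. The PDK4 site lay 2731 bp from the start and measured 6.61, 5.87 and 5.54 in PBS A to C. The FOXO1 site measured 7.22, 7.51 and 4.79 and the KLF9 site 4.61, 5.35 and 5.14. CTRL carried each of them in all 4 samples, and no OSM sample at either time did. None of the 19 was called (limma adjusted p = 0.01492 for the FOXO1 site, 0.04815 for the PDK4 and KLF9 sites).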
